A study of Mus musculus with 8 samples.

Results

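Cxcl14, Il17b and Il33 encode immune signals that the epithelium of the pubertal mouse mammary gland itself transcribes, Cxcl14 and Il17b in its basal cells and Il33 in its hormone-sensing luminal cells. They are 3 of the 14883 genes in the deposited table, and they were chosen because earlier results from the same cells showed this pattern over the cell classes. The levels per class below are therefore a description and carry no test. All 3 genes were found in the table by their symbols.

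Cells came from micro-dissected ducts and terminal end buds, where the ducts grow, of mice at 5 weeks of age, and live cells were sorted into plates. Transcripts were read with SORT-seq, a robotic form of CEL-seq2 that tags the 3′ end of each transcript molecule with a well code and a molecule code. The samples are 8 libraries of 96 wells, 4 on plate 2 and 4 on plate 1, with the strain given as mixed and no genotype or treatment named. Library totals ran from 101158 to 598625 transcripts over all wells. The labels tie no library to ducts, to terminal end buds or to a named animal, so the spread between libraries may be technical.

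The mammary epithelium is a bilayer. Basal, or myoepithelial, cells lie on the basement membrane and contract to eject milk, and luminal cells line the duct, some carrying receptors for oestrogen, progesterone and prolactin and others forming the milk-producing lineage. Cxcl14 is a chemokine made constitutively by many epithelia, Il17b is an interleukin 17 family ligand that binds the receptor Il17rb, and Il33 is an interleukin 1 family cytokine that is kept in the nucleus, is released when cells are damaged and signals through Il1rl1 (ST2) with its co-receptor Il1rap.

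Wells that reached 1500 transcripts and 500 genes were taken as cells, which kept 114 of 768 wells, 14.8%. A cell was basal when Acta2, Tagln and Myl9, genes of the contractile apparatus, together outnumbered the luminal keratins Krt8, Krt18 and Krt19, and luminal in the reverse case. A luminal cell was hormone-sensing when Prlr, the prolactin receptor, outnumbered Trf, transferrin, and secretory otherwise. This gave 66 basal cells, 14 hormone-sensing cells, 28 secretory cells and 6 cells with equal sums. Median depth was 13451 transcripts in basal cells, 17924 in hormone-sensing cells and 7103 in secretory cells. Markers outside the rule fitted the names: Krt14, Krt5 and Trp63 had 316, 610 and 247 transcripts in basal cells and 0 in both luminal classes, Pgr and Areg stood at 10.2 and 17.9 per 10000 transcripts in hormone-sensing cells, and Csn3 and Lalba at 69.7 and 15.1 per 10000 in secretory cells. Csn3 also stood at 5.27 in basal cells and 1.01 in hormone-sensing cells. The whole secretory marker list stood at 163 per 10000 in secretory cells, 10.6 in basal cells and 2.22 in hormone-sensing cells.

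The classes fell into different libraries. Libraries 2 and 4 held 64 of the 66 basal cells (31 and 18 on plate 2, 8 and 7 on plate 1), and libraries 1 and 3 held all 42 luminal cells, so basal against luminal and library cannot be told apart. Hormone-sensing and secretory cells came from the same libraries. Column names run over the same 96 well numbers in all 8 libraries, and the sources used here give no well codes to compare. On plate 1, 8 of the 16 basal cells were led by markers of another cell type: the sum of some non-epithelial list exceeded that of all epithelial lists and rule genes. In 6 of them the leading list was the adipocyte one, through Fabp4, which endothelial cells also express (255 transcripts), beside the endothelial genes Kdr (30) and Cdh5 (22). The leading list was fibroblast in 1 cell and red blood cell in 1. The whole endothelial list had 8 of 8 genes detected in basal cells, at 0.0341 to 12.6 per 10000 over the libraries, against 3 of 8 at 0.0685 to 0.466 in hormone-sensing cells and 2 of 8 at 0 to 0.808 in secretory cells. The adipocyte list had 4 of 5, at 0 to 28.7, with Plin1 at 0 and Adipoq at 2 transcripts, against 0 of 5 in hormone-sensing cells and 1 of 5 in secretory cells. Over the 8 cells the contractile sum was 33 transcripts and the keratin sum 0, of 42947 transcripts. Pooled basal levels and shares of Cxcl14 and Il17b, and the plate fit, are given with and without these 8 cells. Levels per library, means over libraries, plate means and spread values keep them, and plate 1 library 2 holds 5 of the 8.

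To show where the 2 genes with a RefSeq entry in hand begin, the windows around their transcription starts are printed here, 250 bases before the start and 50 after, from RefSeq on GRCm38.p6. Capitals mark the TATA box letters TATAAA. Cxcl14 has 1 listed start, on the minus strand at chr13:56296502-56296801, and Il33 has 2 on the plus strand, at chr19:29924863-29925162 and chr19:29945540-29945839.
Cxcl14: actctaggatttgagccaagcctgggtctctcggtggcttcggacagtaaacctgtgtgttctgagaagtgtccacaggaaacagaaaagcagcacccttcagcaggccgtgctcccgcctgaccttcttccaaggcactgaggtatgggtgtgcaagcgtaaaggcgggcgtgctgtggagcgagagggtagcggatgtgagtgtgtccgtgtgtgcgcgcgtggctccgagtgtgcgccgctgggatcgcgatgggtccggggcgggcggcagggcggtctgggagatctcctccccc
Il33 start 1: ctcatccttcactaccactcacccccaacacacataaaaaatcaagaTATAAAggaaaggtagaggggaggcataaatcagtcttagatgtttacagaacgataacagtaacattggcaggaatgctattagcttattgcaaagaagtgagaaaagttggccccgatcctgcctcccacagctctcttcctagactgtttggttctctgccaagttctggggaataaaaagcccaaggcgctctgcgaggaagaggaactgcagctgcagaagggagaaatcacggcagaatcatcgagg
Il33 start 2: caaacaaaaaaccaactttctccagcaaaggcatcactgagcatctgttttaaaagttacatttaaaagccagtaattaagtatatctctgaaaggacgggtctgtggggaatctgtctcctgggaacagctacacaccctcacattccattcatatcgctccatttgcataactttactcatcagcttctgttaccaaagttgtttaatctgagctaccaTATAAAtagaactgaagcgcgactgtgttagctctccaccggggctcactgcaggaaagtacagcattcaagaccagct
The Cxcl14 window is rich in G and C (62.7%) and holds 22 CG pairs, and 23.1% of the 32851 promoter windows in the RefSeq table hold as many. It has no match to TATAAA, to the AP-1 letters TGANTCA or to the NF-kappaB letters GGG and CC with 5 bases between, each searched on both strands. The Il33 windows hold 46.3% and 42.3% G and C with 6 and 5 CG pairs, against a median of 7 over all windows. TATAAA begins 203 bases before the first Il33 start and 29 bases before the second, and 13.6% of all windows hold it. The AP-1 and NF-kappaB letters occur in 7.81% and 50.8% of all windows and in neither Il33 window. These are letter matches only, and because the method reads the 3′ end, the counts do not tell which Il33 start was used.

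Cxcl14 was a basal transcript, found in nearly every basal cell. Basal cells held 1104 Cxcl14 transcripts of 1122522, a level of 9.84 per 10000 (exact Poisson 95% interval 9.26 to 10.4). Secretory cells held 1 Cxcl14 transcript of 296912, in plate 1 library 1, and hormone-sensing cells 0 of 337608, which allows up to 0.0889 per 10000. The ratio of basal to all luminal cells was 624, with an exact interval of 112 to 24671 that is wide because it rests on 1 luminal transcript. Intervals and limits here cover counting error only.

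Library by library, the Cxcl14 level in basal cells was 10.3 and 10.8 per 10000 in plate 2 libraries 2 and 4, and 5.00 and 7.82 in plate 1 libraries 2 and 4. Every one of these 4 libraries stood above every luminal sum, the highest of which was 0.105. The mean over the 4 basal sums was 8.49 ± 2.67 per 10000 (SD, n = 4), against 0 in all 3 hormone-sensing sums and 0.0263 ± 0.0526 (SD, n = 4) in secretory sums. The luminal classes, apart by that 1 transcript, did not differ beyond their spread. The basal cell of plate 2 library 1 held 2 Cxcl14 transcripts of 2404, and the basal cell of plate 1 library 3, led by red blood cell markers, held 0 of 7783.

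**Figure D1:**
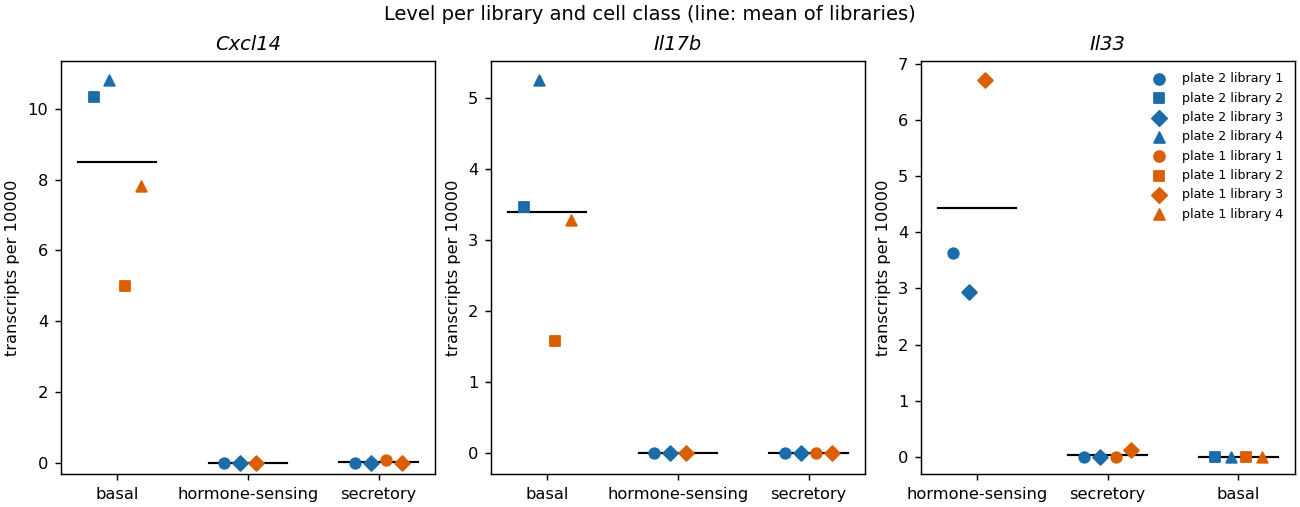
Transcripts per 10000 of Cxcl14, Il17b and Il33 (vertical axis) by cell class, 1 point for each library with at least 3 cells of the class and a line at the mean of the libraries. Cxcl14 and Il17b stand at 1.57 per 10000 or more in the 4 basal sums and at or near 0 in luminal sums, and Il33 stands between 2.93 and 6.71 in hormone-sensing sums.

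Cxcl14 was detected in 59 of 66 basal cells, 89.4% (exact binomial 95% interval 79.4 to 95.6), and in 1 of 28 secretory cells, 3.57%. Thinned to 1500 transcripts per cell, the expected share was 69.3% of basal cells and 0.514% of secretory cells. Of the 7 basal cells without Cxcl14, 6 were among the cells led by another type's markers. With all 8 such cells set aside, Cxcl14 was found in 57 of 58 cells, 98.3% (90.8 to 99.96), and its level was 10.2 per 10000. The 8 cells together held 2 Cxcl14 transcripts.

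Among basal cells Cxcl14 ranged from 0 to 58 transcripts with a median of 13, and from 0 to 45.5 per 10000. In plate 2 library 2 the lowest, median and highest cells had 0, 20 and 53 transcripts, and in plate 2 library 4 they had 1, 20.5 and 58. In plate 1 library 2 they had 0, 0.5 and 13, and in plate 1 library 4 they had 0, 11 and 33. The plate 2 cells thus centred on a like count in both libraries, and plate 1 library 2, with 5 of its 8 cells led by another type's markers, was lowest. The highest level, 45.5 per 10000, was in a cell of 4832 transcripts. Spread was modest by the squared coefficient of variation beyond counting error, a measure in which deeper cells weigh more. It was 0.142, against a median of 0.115 over the 226 genes with a like basal total, and 94 of these 226 varied more. In plate 2 libraries 2 and 4, where no cell was led by another type's markers, the value was 0.102 in both.

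Il17b was also a basal transcript, at a lower level. Basal cells held 433 Il17b transcripts, 3.86 per 10000 (3.50 to 4.24), and the 42 luminal cells held 0 of 634520, which allows up to 0.0473 per 10000. Against that limit of 3 counts over all luminal cells, the basal level was at least 81.6-fold higher, or at least 71.8-fold with libraries weighted alike. These bounds take the basal count as it stands, and the exact 95% interval of the ratio, which covers counting error in both classes, begins at 66.1. Il17b lies on chromosome 18 at 61684887 to 61692538 on the plus strand in GRCm38 (GENCODE M21), and the antisense gene Gm38165 overlaps it. The sources used here do not say whether strand was used in counting, so reads of the overlapping gene cannot be told apart from those of Il17b. Cxcl14 (chromosome 13, 56288643 to 56296551, minus strand) and Il33 (chromosome 19, 29925114 to 29960718, plus strand) have no overlapping gene in that annotation. All 3 are protein-coding.

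The Il17b level in basal cells was 3.46 and 5.26 per 10000 in plate 2 libraries 2 and 4, and 1.57 and 3.28 in plate 1 libraries 2 and 4. The lowest, plate 1 library 2, rested on 11 transcripts, 9 of them in 1 cell. The mean was 3.39 ± 1.51 per 10000 (SD, n = 4), below the Cxcl14 mean, and Il17b was lower than Cxcl14 in each of the 4 libraries. Neither level was divided by transcript length, which a method that counts 3′ ends does not need. The single basal cells of plate 2 library 1 and plate 1 library 3 held 0.

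Il17b was found in 55 of 66 basal cells, 83.3% (72.1 to 91.4), and in 0 of 42 luminal cells, which allows a share of up to 7.14%. At 1500 transcripts per cell the expected basal share was 39.6%. None of the 8 cells led by another type's markers held Il17b, and without them the share was 94.8% (85.6 to 98.9) and the level 4.01 per 10000.

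Il17b varied more from cell to cell than Cxcl14 over all basal cells and in 3 of 4 libraries. Basal cells held 0 to 29 Il17b transcripts with a median of 3, and from 0 to 19.5 per 10000. In plate 2 library 2 the lowest, median and highest cells had 0, 3 and 25 transcripts, and in plate 2 library 4 they had 1, 7 and 29. In plate 1 library 2 they had 0, 0 and 9, and in plate 1 library 4 they had 0, 2 and 23. The squared coefficient of variation beyond counting error was 0.652, against a median of 0.164 over 718 genes with a like total, and 75 of the 718 varied more. Within plate 2 libraries 2 and 4 it was 0.682 and 0.530. In plate 1 library 2 it was 2.42 for Il17b and 0.523 for Cxcl14, and in plate 1 library 4 the order was the other way, 0.133 for Il17b and 0.186 for Cxcl14. The 33 basal cells with the most Il17b held 91.9% of its transcripts, and the 33 with the most Cxcl14 held 83.6% of the Cxcl14 transcripts. These shares are of counts, not adjusted for depth.

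**Figure D2:**
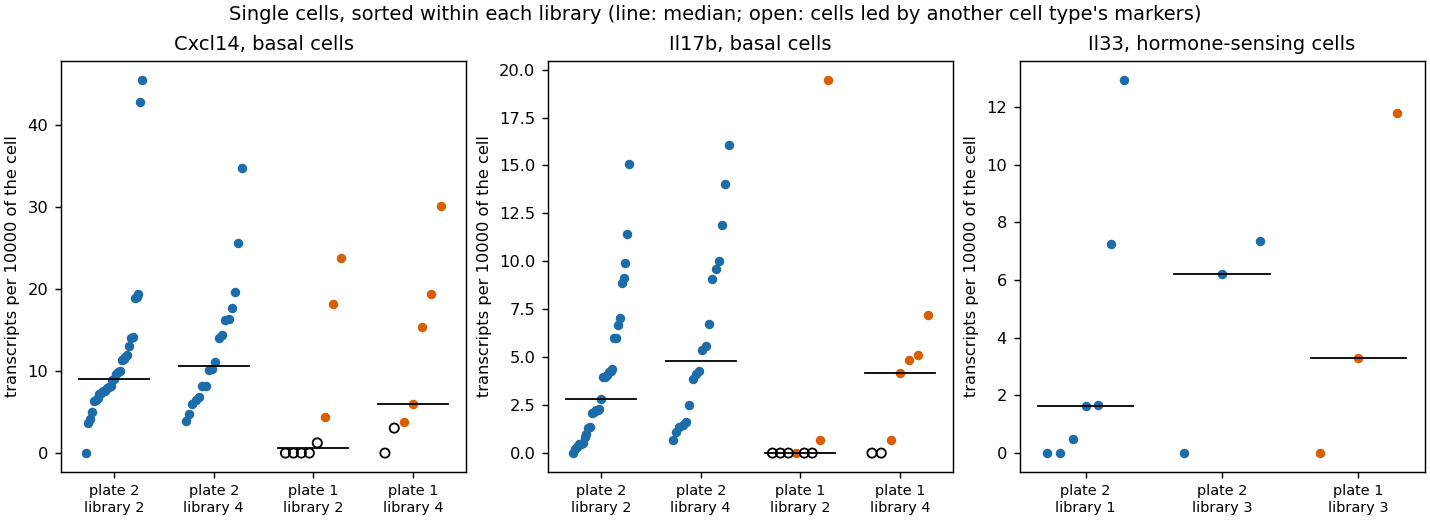
Transcripts per 10000 of the cell (vertical axis), 1 point per cell sorted within its library (horizontal axis), with a line at the library's median and open points for cells led by another cell type's markers; libraries with fewer than 3 cells of the class are left out. Cxcl14 and Il17b are above 0 in all but 1 cell each of plate 2 libraries 2 and 4, and most plate 1 zeros are open points.

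Cxcl14 and Il17b were each found in most basal cells, so most held both, and on plate 2 their levels did not move together. Both were found in 54 of 66 basal cells, Cxcl14 without Il17b in 5, Il17b without Cxcl14 in 1, and neither in 6, all of them led by another type's markers. With the 8 cells led by such markers set aside, Cxcl14 was in 57 of 58 cells and Il17b in 55 of 58. Shares so high leave little room for cells without both, so the overlap by itself shows no link between the 2 genes. Median depth was 19806 transcripts in cells with both and 3068 in cells with neither. Over the 31 cells of plate 2 library 2 the Pearson correlation of the log levels was 0.0015, and over the 18 cells of plate 2 library 4 it was 0.035. It was 0.646 over the 8 cells of plate 1 library 2 and 0.831 over the 7 cells of plate 1 library 4, counts that include 5 and 2 cells led by another type's markers. Cells of 1 library share their preparation, so these values are descriptive.

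On plate 2 the level of Il17b, and not that of Cxcl14, moved with the contractile genes. Cells were ranked by the summed level of Acta2, Tagln and Myl9 within each library, a split chosen after the values were seen and built on the genes that defined the class. In plate 2 library 2, the 15 cells above the median held 6.13 Il17b transcripts per 10000, against 1.32 in the 16 cells at or below it. In plate 2 library 4 the 9 cells above the median held 7.92 and the other 9 held 3.44. Cxcl14 stood at 9.84 above and 10.7 at or below the median in plate 2 library 2, and at 10.3 and 11.1 in the same order in plate 2 library 4, so it was slightly lower in the more contractile cells of both. Those cells were also the shallower ones, with median depths of 11974 above and 21788 at or below the median in plate 2 library 2, and of 14915 and 18662 in plate 2 library 4.

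The rank correlation of the contractile sum with Il17b was 0.746 over 31 cells and 0.645 over 18 cells in plate 2 libraries 2 and 4. With Cxcl14 it was -0.148 and -0.228, and with depth -0.193 and -0.214. Over all basal cells of plate 1 libraries 2 and 4 (8 and 7 cells), it was 0.514 and 0.649 with Il17b and 0.660 and 0.786 with Cxcl14. On plate 1 library 4, Il17b stood at 4.56 above and 0.841 at or below the median of all 7 basal cells, and at 4.27 and 2.12 in its 5 cells left when those led by another type's markers were set aside. Cxcl14 stood at 9.72 and 4.21 there over all 7 cells, and at 7.38 and 9.29 over those 5, so the order for Cxcl14 turned when those cells were left out. In plate 1 library 2, with 8 cells, Il17b stood at 2.59 above and 0 at or below the median, and Cxcl14 at 7.99 and 0.363. Levels within a cell share its total as denominator.

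**Figure D3:**
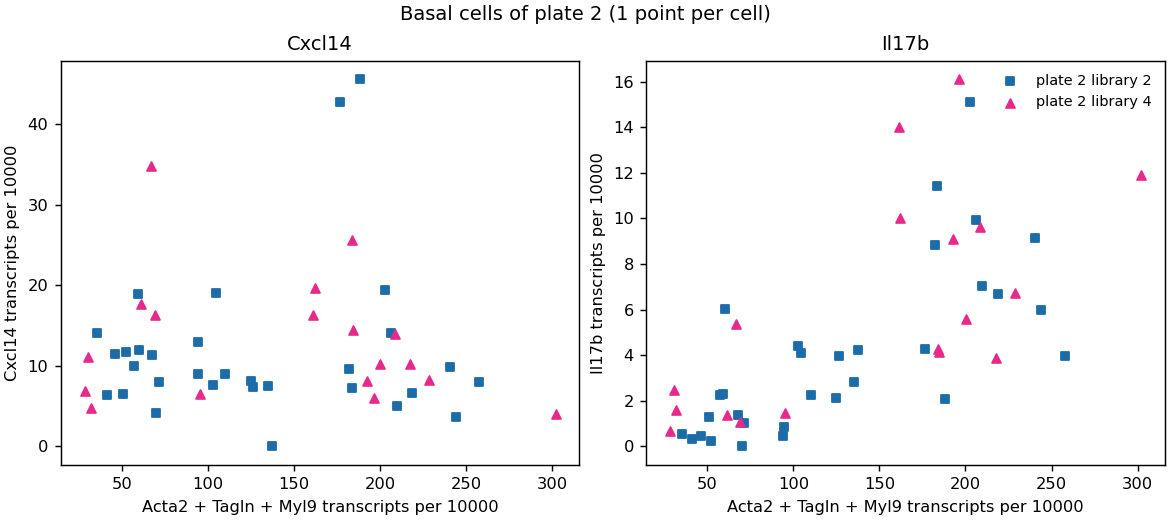
Transcripts per 10000 of Cxcl14 or Il17b (vertical axes) against the summed Acta2, Tagln and Myl9 transcripts per 10000 (horizontal axis) in the 31 basal cells of plate 2 library 2 and the 18 of plate 2 library 4, 1 point per cell. Il17b is higher in cells with more contractile transcripts in both libraries, and Cxcl14 is not.

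Il33 marked hormone-sensing cells. These cells held 148 Il33 transcripts of 337608, 4.38 per 10000 (exact Poisson 95% interval 3.71 to 5.15). Secretory cells held 1 of 296912, in plate 1 library 3, and basal cells 0 of 1122522, which allows up to 0.0267 per 10000. The hormone-sensing level was 130 times the secretory one (exact interval 23.0 to 5175, on 1 secretory transcript) and at least 164-fold higher than the limit of 3 counts over all basal cells. With libraries weighted alike it was at least 166-fold higher than basal. With counting error in both classes, the exact 95% interval of the ratio to basal begins at 132.

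Il33 stood at 3.63 and 2.93 per 10000 in the hormone-sensing cells of plate 2 libraries 1 and 3, and at 6.71 in those of plate 1 library 3. The hormone-sensing cell of plate 1 library 1 held 0 of 5968. Secretory cells of the same libraries held 0 on plate 2 and 0 and 0.133 in plate 1 libraries 1 and 3. The mean over sums of at least 3 cells was 4.43 ± 2.01 per 10000 in hormone-sensing cells (SD, n = 3), 0.0331 ± 0.0663 in secretory cells (SD, n = 4) and 0 in basal cells (n = 4). Secretory and basal cells, apart by 1 transcript, did not differ beyond their spread.

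Il33 was found in 9 of 14 hormone-sensing cells, 64.3% (exact binomial 95% interval 35.1 to 87.2), in 1 of 28 secretory cells, 3.57%, and in 0 of 66 basal cells, which allows a share of up to 4.55%. At 1500 transcripts per cell the expected share was 33.0% in hormone-sensing cells and 0.286% in secretory cells. No hormone-sensing cell was led by another cell type's markers.

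Hormone-sensing cells were of mixed Il33 content. The 3 cells of plate 1 library 3 held 0, 19 and 53 Il33 transcripts, and the 3 cells of plate 2 library 3 held 0, 6 and 17. The 7 cells of plate 2 library 1 held 0, 0, 1, 2, 6, 11 and 33. Each of these libraries thus had cells with none beside cells with many. The cell with 53 transcripts carried 35.8% of all Il33, and the 7 highest cells carried 98.0%.

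Cells without Il33 were the shallower ones by their median, though the ranges overlapped. The 5 cells without Il33 had 4455 to 45559 transcripts with a median of 7262, and the 9 with it 8501 to 57903 with a median of 23134. Had all 14 cells shared 1 level, 0.301 cells without Il33 would be expected at their depths. The squared coefficient of variation beyond counting error was 0.798, against a median of 0.0919 over 644 genes with a like total in these cells, and 49 of the 644 varied more. The same reckoning gave 6.22 expected against 11 found for Il17b in basal cells, and 1.23 against 7 for Cxcl14, with 8 and 6 of the empty cells led by another type's markers.

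Cells with and without Il33 were alike in the keratin Krt8 (29.7 and 29.1 per 10000) and close in the prolactin receptor Prlr (31.3 and 36.0) and the progesterone receptor Pgr (9.77 and 11.6). The marker Ly6d was close too (12.3 and 12.9). Areg, amphiregulin, an EGF receptor ligand that oestrogen induces, stood at 21.0 in the 9 cells with Il33 and 7.62 in the 5 without. Cited1, a transcriptional co-regulator, stood at 25.8 and 11.3, and the marker Foxa1 at 8.92 and 5.59, in the same order. The keratin Krt18 went the opposite way, at 23.3 in cells with Il33 and 36.0 in cells without. So did the pooled levels of the transcription factor Tbx3 (1.08 and 1.65) and of Esr1, the oestrogen receptor (0.309 and 1.52). These rest on few transcripts, 28 and 13 of Tbx3 and 8 and 12 of Esr1. By cell the order turned: Tbx3 was found in 8 of the 9 cells with Il33 and 3 of the 5 without, with medians of 1.03 and 0.644. Esr1 was found in 5 of the 9 and 2 of the 5, with medians of 0.345 and 0. Per cell, Areg ranged from 0.272 to 52.2 per 10000 in cells with Il33 and from 0 to 42.6 in cells without, so the ranges overlapped, and Cited1 overlapped likewise, from 1.09 to 44.2 against 0 to 55.1. Pooled levels of the 5 cells without Il33 lean on 1 cell, which held 45559 of their 78782 transcripts. The split is by Il33 itself and has no test.

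The genes most like each member over the 11 sums of at least 3 cells were ranked by Pearson correlation of log2(transcripts per 10000 + 0.1) among 8117 genes. With so few sums and so many at 0, many genes reach a high value. Closest to Cxcl14 were Bmp7, a bone morphogenetic protein (0.996), Trp63, the basal transcription factor p63 (0.995), Spon2 (0.995), Col18a1, a basement membrane collagen (0.995), and Fbn1, fibrillin (0.994). They had 192, 247, 250, 422 and 146 basal transcripts in that order and 1 luminal transcript in all, of Bmp7.

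Closest to Il17b were Lmo1, a LIM-only protein (0.999), Spon2 (0.999), Fbn1 (0.998), Myh10, a non-muscle myosin (0.997), and Moxd1 (0.997). Spon2 and Fbn1 stood in both lists. Closest to Il33 were a gene listed as Il8 (0.999), Itih2 (0.993), Nckap5 (0.985), Areg (0.982) and Tspan1, a tetraspanin (0.981). Il8 as listed had 138 transcripts in hormone-sensing cells and 2 in the others, and it stood at 5.06 per 10000 in the 9 cells with Il33 and 0.889 in the 5 without. Areg had 603 transcripts in hormone-sensing cells and 13 in the others.

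Most of the other listed chemokines were too scarce for a test. For the tests, the transcripts of a class were added up within each library and compared by edgeR's quasi-likelihood method over all genes that passed a filter on low counts, with the 8 genes of the class rule left out. Basal against luminal cells (n = 4 libraries each) gave 498 of 3412 tested genes past an adjusted p of 0.05, 14.6%, 272 higher and 226 lower in basal cells. The median log2 change of all 3412 genes was 0.00.

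Of 32 listed chemokines other than Cxcl14, 21 were in the table, 2 were tested and 1 was higher. Cxcl12, the ligand of Cxcr4, had 225 transcripts in basal cells and 1 in luminal cells, a ratio of 127 (exact interval 22.6 to 5046), with a log2 change of 6.78 ± 0.68 (SE, edgeR adjusted p = 2.27e-05). Its basal level was 1.77 and 1.93 per 10000 in plate 2 libraries 2 and 4, and 3.43 and 2.80 in plate 1 libraries 2 and 4, against 0 to 0.099 in luminal sums. All 4 basal sums stood above all luminal sums, and the share of all tested genes with such an order was not counted. Cxcl1, a neutrophil attractant, had a log2 change of -0.83 ± 0.81 and did not pass (edgeR adjusted p = 0.596).

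Few transcripts of Il17rb and Il1rl1, the receptors for Il17b and Il33, were found, and no receptor was assigned to Cxcl14 here. Of 24 listed chemokine receptors 11 were in the table and 2 tested, Cxcr2 (log2 change 0.29 ± 0.32) and Xcr1 (-0.35 ± 0.37), and neither passed. Cxcr2 was not scarce, with 762 transcripts in basal cells, 156 in hormone-sensing cells and 248 in secretory cells. The ligands, receptors and adaptors of the interleukin 17 family had 10 of 12 in the table and 0 tested. Il17rb, the receptor for Il17b, had 6 transcripts in basal cells, 2 in hormone-sensing cells and 0 in secretory cells. In the interleukin 1 family list, 15 of 26 were in the table and 1 tested, the kinase Irak1 (0.84 ± 0.35, edgeR adjusted p = 0.146). Il1rl1, the receptor for Il33, had 0 transcripts in hormone-sensing cells, 1 in secretory cells and 0 in basal cells, and Il1rap had 1, 6 and 42 in that order.

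Of 32 other cytokines 20 were in the table, 3 were tested and 1 was higher in basal cells. Kitl, the ligand of the receptor Kit, stood at 3.68 and 4.32 per 10000 in the basal cells of plate 2 libraries 2 and 4. In those of plate 1 libraries 2 and 4 it stood at 5.42 and 3.28, against 1.58 to 2.86 in luminal sums. Its log2 change was 0.95 ± 0.29 (SE, edgeR adjusted p = 0.043). That call was lost in 9 of 12 alternatives, with adjusted p of up to 0.106, among them the fit without the 8 cells led by another type's markers (0.0745), which drops plate 1 library 2. Mif (0.14 ± 0.31) and Il11 (0.07 ± 0.35) did not pass.

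All 16 listed NF-kappaB genes were in the table, 3 were tested and 1 was lower in basal cells. Nfkbia, the inhibitor that NF-kappaB itself induces, stood at 2.35 and 2.93 per 10000 in basal cells of plate 2 libraries 2 and 4. In those of plate 1 libraries 2 and 4 it stood at 1.57 and 1.45, against 3.01 to 10.3 in luminal sums. Its log2 change was -1.41 ± 0.39 (SE, edgeR adjusted p = 0.0263). The adjusted p was 0.0894 without plate 1 library 4, 0.0727 without plate 2 library 2 and 0.0903 without plate 2 library 3. Nfkbiz (-0.24 ± 0.46) and Nfkb1 (0.04 ± 0.29) did not pass. Over these lists 3 of 11 tested genes passed, against 14.6% of all tested genes.

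Between hormone-sensing and secretory cells of the same 3 libraries, with library as block, 235 of 1801 tested genes passed, 13%, and the median log2 change of all genes was 0.10. No gene of the 6 lists did, with 12 tested. The gene listed as Il8, which is in none of the lists, passed. It was named for its likeness to Il33 over these same sums, so its pass follows from that choice and is no support. Its fitted log2 change of 5.73 ± 1.00 (SE) rests on at most 2 secretory transcripts. Of the list genes Cxcr2 came nearest (log2 change -1.28 ± 0.49, edgeR adjusted p = 0.0619), then Cxcl1 (1.75 ± 0.78, adjusted p = 0.131). Il17re, a receptor of the interleukin 17 family, had 26 transcripts in hormone-sensing cells, 66 in secretory cells and 6 in basal cells, with a log2 change of -1.13 ± 0.68 between the luminal classes (edgeR adjusted p = 0.346). The fit leans on plate 2 library 1, whose sums held 145951 transcripts of hormone-sensing cells and 12378 of secretory cells: without it 9 genes passed.

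The plates are the groups that the labels give, and the members were not chosen on them. In basal cells Cxcl14 averaged 10.6 ± 0.335 per 10000 on plate 2 and 6.41 ± 2.00 on plate 1 (SD over 2 libraries each), a log2 change of 0.72 ± 0.33 (SE, edgeR adjusted p = 0.602). Il17b averaged 4.36 ± 1.27 on plate 2 and 2.43 ± 1.21 on plate 1, a log2 change of 0.82 ± 0.44 (SE, edgeR adjusted p = 0.638). For Cxcl14 both plate 2 libraries lay above both plate 1 libraries, and for Il17b likewise, but neither difference passed. The share of all tested genes with that order was not counted.

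Across all genes 0 of 4663 passed in the plate fit, 0%, while 392 had an unadjusted p under 0.05 in edgeR and 21 passed in DESeq2. The 8 basal cells led by another type's markers were all on plate 1. With them set aside the log2 changes were 0.44 for Cxcl14 (edgeR adjusted p = 0.384) and 0.38 for Il17b (adjusted p = 0.678), in a fit that drops plate 1 library 2 because 3 basal cells are left there. Without plate 1 library 4, which leaves plate 1 library 2 alone on its plate with its spread taken from the others, they were 1.22 (adjusted p = 4.69e-05) and 1.59 (adjusted p = 0.00195).

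**Figure D4:**
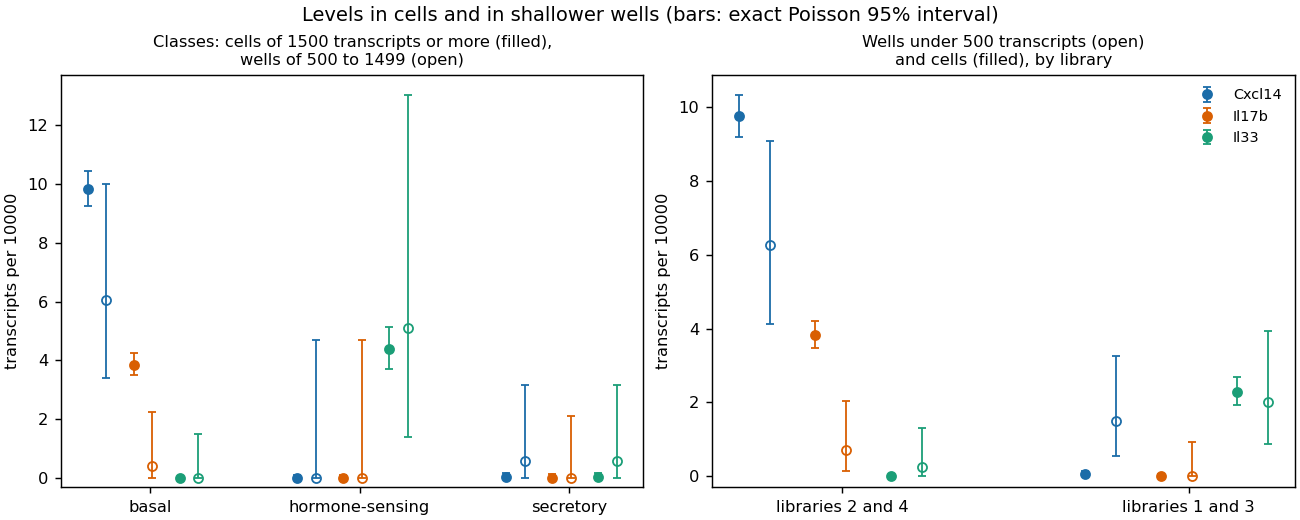
Transcripts per 10000 of Cxcl14, Il17b and Il33 (vertical axes) with exact Poisson 95% intervals, in wells under the cell minimum (open) beside cells (filled), by class for wells of 500 or more but under 1500 transcripts (left) and by library for wells under 500 transcripts (right). In wells of 500 or more transcripts, Cxcl14 is highest in those classed as basal and Il33 in those classed as hormone-sensing. That Il33 level rests on 4 transcripts, and its interval overlaps the secretory one. Wells under 500 transcripts in libraries 1 and 3 hold Cxcl14 at 1.50 per 10000.

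The 75 wells of 500 or more transcripts not kept as cells, classed by the same sums, show the members outside those cells. Most were under 1500 transcripts. Of 121 wells that reached 1500 transcripts 114 were cells, so the set also holds wells that missed only the gene minimum. Of its 30 basal wells, 9 held Cxcl14, 15 transcripts in all or 6.06 per 10000 (exact Poisson 95% interval 3.39 to 9.99). The same wells held 1 Il17b transcript, 0.404 per 10000 (0.0102 to 2.25), below the interval of the basal cells. Of 9 hormone-sensing wells 3 held Il33, 4 transcripts in all or 5.09 per 10000 (1.39 to 13.0), and the 30 basal wells held 0. Secretory wells of this set, 16 in number, held 1 transcript each of Cxcl14 and Il33, and 20 wells with equal sums held 1 of Cxcl14 and 2 of Il33.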

How the data were processed

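The authors' deposited table holds expected counts, that is molecule numbers per gene in each well, estimated from molecular tags. Of 533078 values above 0, 533073 lay, within a tolerance of 1e-06, on the scale given by correcting for tags shared by chance in a pool of 256, as read from the values. The submitters' processing notes name BWA 0.6.2-r126 and the genome mm10. Reads were 75 bp pairs, per the labels' protocols. Further steps are not stated in the sources used here.

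Values were rounded to whole transcripts and 81 spike-in lines were left out of totals. Cells and classes followed the rule given in the report. 1 luminal cell with equal Prlr and Trf counted as secretory. No doublet caller was run and no doublets were removed. Levels are per 10000 transcripts with exact Poisson intervals, shares have exact binomial (Clopper-Pearson) intervals at 95%, and a count of 0 allows up to 3. Shares at 1500 transcripts come from the hypergeometric distribution.

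Sums per library and class were tested with edgeR 4.0.16 in R 4.3.3 (quasi-likelihood, TMM scaling, filterByExpr; threshold 0.05 on the Benjamini-Hochberg adjusted p), with at least 5 cells per sum, or 3 for the luminal classes. DESeq2 1.42.0 was an alternative, as were no filter on low counts, a plate or library term, leaving out each library, and setting aside cells led by another type's markers. Standard errors are approximate, computed as the size of the log2 change divided by the square root of F. The fits were tested on simulated counts. Named genes were the members, up to 4 passing and 2 other genes of each list in a comparison, and the 5 genes most like each member. The members, lists and tests were chosen with earlier results of these data known. Positions are from GENCODE M21 and promoters from RefSeq.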

Additional observations from a re-analysis of the deposited data

Results flagged for a closer look

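A library far from the others was seen in 2 of the 4 groups of 4 libraries checked. In secretory cells, plate 1 library 1 had a Cxcl14 level of 0.105 per 10000 and plate 1 library 3 had an Il33 level of 0.133 per 10000, and the other 3 libraries had 0 in each case. Each value is 1 transcript. With 3 libraries at 0, any lone transcript stands apart in this way, so the rate of about 1 in 20 that chance gives for measured values does not apply.

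Wells not kept as cells also held Cxcl14 and Il33 above the limit that a count of 0 allows. Il17b was not above that limit in any set of these wells. Wells of 500 or more transcripts that were not kept held Cxcl14 at 6.06 per 10000 where classed as basal and Il33 at 5.09 per 10000 where classed as hormone-sensing. Wells under 500 transcripts were not classed. In libraries 2 and 4 these held 27 Cxcl14 transcripts, 6.26 per 10000 (exact Poisson 95% interval 4.12 to 9.10), against 9.76 in the cells of those libraries.

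In libraries 1 and 3 the wells under 500 transcripts held 6 Cxcl14 transcripts in 4 wells, 1.50 per 10000 (0.549 to 3.26), against 0.046 in the cells of those libraries (0.00949 to 0.135). They held 8 Il33 transcripts, 2.00 per 10000 (0.862 to 3.93), against 2.29 in the cells.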

How the results depend on the processing

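The levels of Cxcl14, Il17b and Il33 in their classes and the shares of basal cells with Cxcl14 and Il17b moved by less than the spread between libraries under each of 13 alternatives. For the shares that spread was wide, an SD of 22.9 percentage points for Cxcl14 and 34.6 for Il17b. Within it, the Cxcl14 share ran from 82.9% to 98.3% and the Il17b share from 71.4% to 94.8%. Leaving out a library with no cells of the class cannot move a value. No log2 change recomputed for a gene here reversed its direction. The order of Cxcl14 over the contractile split in plate 1 library 4 did turn, as given in the report. The share of hormone-sensing cells with Il33 was 68.3% with libraries weighted alike and 57.1% to 69.2% with 1 library left out. Genes past the threshold between basal and luminal cells numbered 1515 with no filter on low counts, 830 with cells led by another type's markers set aside (which drops plate 1 library 2) and 424 to 840 with 1 library left out, the most without plate 1 library 2. Between hormone-sensing and secretory cells 9 to 134 genes passed with 1 library left out (117 without plate 1 library 3, 9 without plate 2 library 1), 167 by DESeq2 and 227 with no replicate block. Between plates in basal cells 21 passed by DESeq2, 170 with no filter, 83 with cells led by another type's markers set aside and 34 to 862 with 1 library left out. With library number as a replicate block 27 passed, and Cxcl14 (log2 0.76, edgeR adjusted p = 0.894) and Il17b (0.90, adjusted p = 0.870) did not. Same-numbered libraries deviated with a correlation of -0.016 over 4668 genes, so the numbers were not taken as pairs. Cxcl12 passed under all 12 alternatives. The causes were not tested. Precision is limited by 14 hormone-sensing cells and by 1 class per library between basal and luminal cells.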

Other observations

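Several listed genes too scarce to be tested between basal and luminal cells had uneven pooled counts. They were picked after their values were seen. Of the genes named here, Bcl3 alone was tested in another comparison, hormone-sensing against secretory cells, and it did not pass (log2 change 1.76 ± 0.75, SE, edgeR adjusted p = 0.112). Csf1, the macrophage growth factor, had 53 transcripts in basal cells, 2 in hormone-sensing cells and 4 in secretory cells. Cxcl17, a mucosal chemokine, had 23 in hormone-sensing cells and 0 in both other classes. Cxcl2, a neutrophil attractant, had 42 in hormone-sensing cells, 31 in secretory cells and 1 in basal cells, and Bcl3, an NF-kappaB cofactor, had 70, 16 and 8 in the same order. Lif and Tnf were highest in secretory cells per 10000 transcripts: Lif stood at 0.674 there, 0.0296 in hormone-sensing cells and 0.00891 in basal cells, and Tnf at 0.606, 0.296 and 0.00891.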
